A study of Mus musculus with 72 samples.

Results

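The 4 adhesion G protein-coupled receptor genes Adgrb3, Adgrl3, Adgrl2 and Adgrv1 carry recurrent DNA-break clusters (RDCs), which are loci where DNA double-strand breaks (DSBs) recur in neural progenitor cells under replication stress. They were chosen by gene family, as 4 of the 107 RDCs with a listed position and replication class, and their junctions were read from all libraries of LAM-HTGTS, a translocation sequencing method based on linear amplification from 1 known cut. In LAM-HTGTS a CRISPR-Cas9 cut serves as the bait DSB, and each junction marks a prey, a DSB end elsewhere in the genome that became joined to it. Adgrb3 and Adgrl3 lie in late constant-timing regions (CTRs; 42 of the 107 RDCs), broad stretches that replicate late throughout, and Adgrl2 and Adgrv1 lie in timing-transition regions (TTRs; 65 of the 107), where the replication time changes along the chromosome.

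The study asked how the DNA polymerase inhibitor aphidicolin (Aph) and the Pol θ inhibitor ART558 change the capture of DSBs at RDCs. Xrcc4-/-p53-/- neural progenitor cells came from 1 embryonic stem cell line, Nxp010, with the genotype NestinCre+Xrcc4-/-p53-/-. They lack a factor of classical end joining together with p53 in every group, the DMSO solvent controls included. They received DMSO (18 libraries), Aph (9), ART558 (9) or Aph + ART558 (9), with the bait DSB on chromosome 6, 8, 12 or 14. Wild-type cells were primary neural stem and progenitor cells (NSPCs) from brains of C57BL/6J embryos. They received Aph (7 libraries) or Aph + ART558 (8), with the bait on chromosome 6 or 14, and no wild-type DMSO library was analysed here. Aph was given at 0.5 µM for 72 h and 0.25 µM for 24 h, and ART558 at 5 µM for 72 h and 2.5 µM for 24 h. The repeats of the wild-type cells are described as biological and those of the Xrcc4-/-p53-/- cells as technical in one place and as biological in another, so that p-values within the latter measure the spread between libraries of 1 line, which may be technical.

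Adhesion G protein-coupled receptors pair a very long extracellular region with a membrane-spanning receptor domain, and a self-cleaving domain between them can release a tethered peptide that activates the receptor. In neurons, the latrophilins Adgrl2 and Adgrl3 sit at synapses and bind teneurins and FLRT proteins on the partner cell. Adgrb3, also called BAI3, is a synaptic receptor for complement C1q-like proteins. Adgrv1, also called VLGR1, forms the ankle links of hair-cell stereocilia, and its loss causes Usher syndrome. Aph slows replication forks, and long transcribed genes are a known place of DSBs under such replication stress.

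The 4 regions held 343 junctions, 0.194% of the 176652 junctions outside the bait chromosomes. Adgrb3 (ENSMUSG00000033569.17, minus strand, GRCm38 chr1:25067476-25829707) held 58, and Adgrl3 (ENSMUSG00000037605.16, plus strand, chr5:81020138-81825133) held 90. For both CTR members the region is the gene body, of 762 kb and 805 kb. For the TTR members, and for every other RDC set beside the members, it is a window of 1 Mb. The Adgrl2 window (ENSMUSG00000028184.12, minus strand, chr3:148400001-149400000) held 100 junctions, and the gene fills 17.5% of it. The Adgrv1 window (ENSMUSG00000069170.14, minus strand, chr13:80900001-81900000) held 95, and the gene fills 53.8% of it beside Lysmd3, Polr3g, Mblac2 and Cetn3. In all 4 members, 220 junctions fell in introns and 5 in exons.

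What a captured break looks like is shown here with a read with microhomology from Aph-treated Xrcc4-/-p53-/- cells for each gene and, for Adgrb3, Adgrl2 and Adgrv1, a direct join from cells treated with Aph + ART558. Each read begins in the bait and ends in the prey, all prey positions are intronic, and 30 bases on either side of each junction match GRCm38. The second Adgrl2 position lies in an intron of a longer transcript, upstream of the transcript used for intron numbers. In the microhomology reads the capitals are bases that fit both bait and prey. In the direct joins the capitals are the last bait base and the first prey base.
Adgrb3, chromosome 8 bait to chromosome 1 position 25400662 in intron 16: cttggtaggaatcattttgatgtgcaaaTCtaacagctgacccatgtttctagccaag
Adgrb3, chromosome 6 bait to chromosome 1 position 25501397 in intron 10: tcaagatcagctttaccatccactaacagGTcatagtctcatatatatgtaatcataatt
Adgrl3, chromosome 12 bait to chromosome 5 position 81504409 in intron 7: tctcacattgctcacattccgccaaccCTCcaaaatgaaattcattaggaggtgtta
Adgrl2, chromosome 8 bait to chromosome 3 position 148853342 in intron 5: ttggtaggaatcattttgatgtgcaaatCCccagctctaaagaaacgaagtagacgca
Adgrl2, chromosome 6 bait to chromosome 3 position 148959687: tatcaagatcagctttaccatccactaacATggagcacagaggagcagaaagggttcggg
Adgrv1, chromosome 8 bait to chromosome 13 position 81274276 in intron 84: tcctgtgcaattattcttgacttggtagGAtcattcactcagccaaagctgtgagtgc
Adgrv1, chromosome 12 bait to chromosome 13 position 81441265 in intron 65: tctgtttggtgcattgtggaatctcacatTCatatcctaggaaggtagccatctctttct

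The bait DSBs to which these ends were joined are set by 4 guides, shown with the PAM in capitals because every junction here shares 1 of these ends.
Chromosome 6 guide, minus strand, chr6:70950106-70950125: gagggttggaaatgctcgtaTGG
Chromosome 8 guide, minus strand, chr8:59477701-59477720: gtcgaccatatgctaatcttAGG
Chromosome 12 guide, plus strand, chr12:12994038-12994057: attccgccaaccctcgagatAGG
Chromosome 14 guide, plus strand, chr14:83268830-83268849: ggcttagttatagtaggggcTGG

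All 4 members lie on chromosomes without a bait, so their density could be read in every library. Density is given as JPTM, the junctions of a region per 1000 junctions outside the bait chromosome and per Mb of region. Of the 60 libraries, 57 held at least 500 such junctions, from 668 to 8489 with a median of 2853, and entered the comparisons. A single junction in a 1 Mb window was worth 0.118 JPTM in the deepest of these libraries and 1.497 in the shallowest. Adgrb3 was at 0 in 29 of the 57 libraries, Adgrl3 in 23, Adgrl2 in 17 and Adgrv1 in 19, where a count of 0 allows up to 3 junctions, or 0.593 to 5.89 JPTM depending on the library and the region. The libraries came from 11 sequencing runs, and all 15 wild-type libraries share 1 run, so that genotype, cell source and run cannot be told apart. Among the Xrcc4-/-p53-/- DMSO libraries, 7 of the chromosome 6 bait are not labelled as part of the ART558 experiment (theta collection). They came from runs without an Aph library, so that drug and run partly coincide in the comparison of Aph with DMSO.

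Some libraries held the same junctions. The wild-type Aph + ART558 libraries of the chromosome 6 bait shared 102 exact positions between replicates 1 and 2, which is 18.2% of the positions of the smaller library, and 86 between replicates 2 and 4, or 15.3%. The wild-type Aph replicate 3 and Aph + ART558 replicate 4 of the same bait shared 102, or 9.14%. Reads carry no molecular identifiers, so a repeat may be a copy of 1 event. When junctions of 1 strand within 10 bp were counted once per run and bait, the members kept 57 (Adgrb3), 71 (Adgrl3), 85 (Adgrl2) and 83 (Adgrv1) junctions, 296 in all. Adgrl3 lost the most, 19 of 90, and Adgrb3 lost 1 of 58.

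Within the regions the breaks spread along the whole gene body in Adgrb3 and Adgrl3. Counting near-identical junctions once, Adgrb3 held 74.8 junctions per Mb and Adgrl3 88.2. As deposited, the longest intron of Adgrb3, intron 3 of 266 kb, held 21 junctions, while intron 2 of Adgrl3, its longest at 130 kb, held 3. With repeats counted once, Adgrv1 held 85.5 per Mb inside the gene and 80.1 outside it, and 10 of its junctions as deposited fell in intron 83, its longest at 90.7 kb. With repeats counted once, Adgrl2 held 114 per Mb inside its gene, from 20 junctions, and 78.8 in the rest of its window. Of the 100 Adgrl2 junctions as deposited, 24 lay in the gene, 44 upstream of its start and 32 downstream of its end, so that the Adgrl2 values below describe mainly the gene's surroundings.

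**Figure D1:**
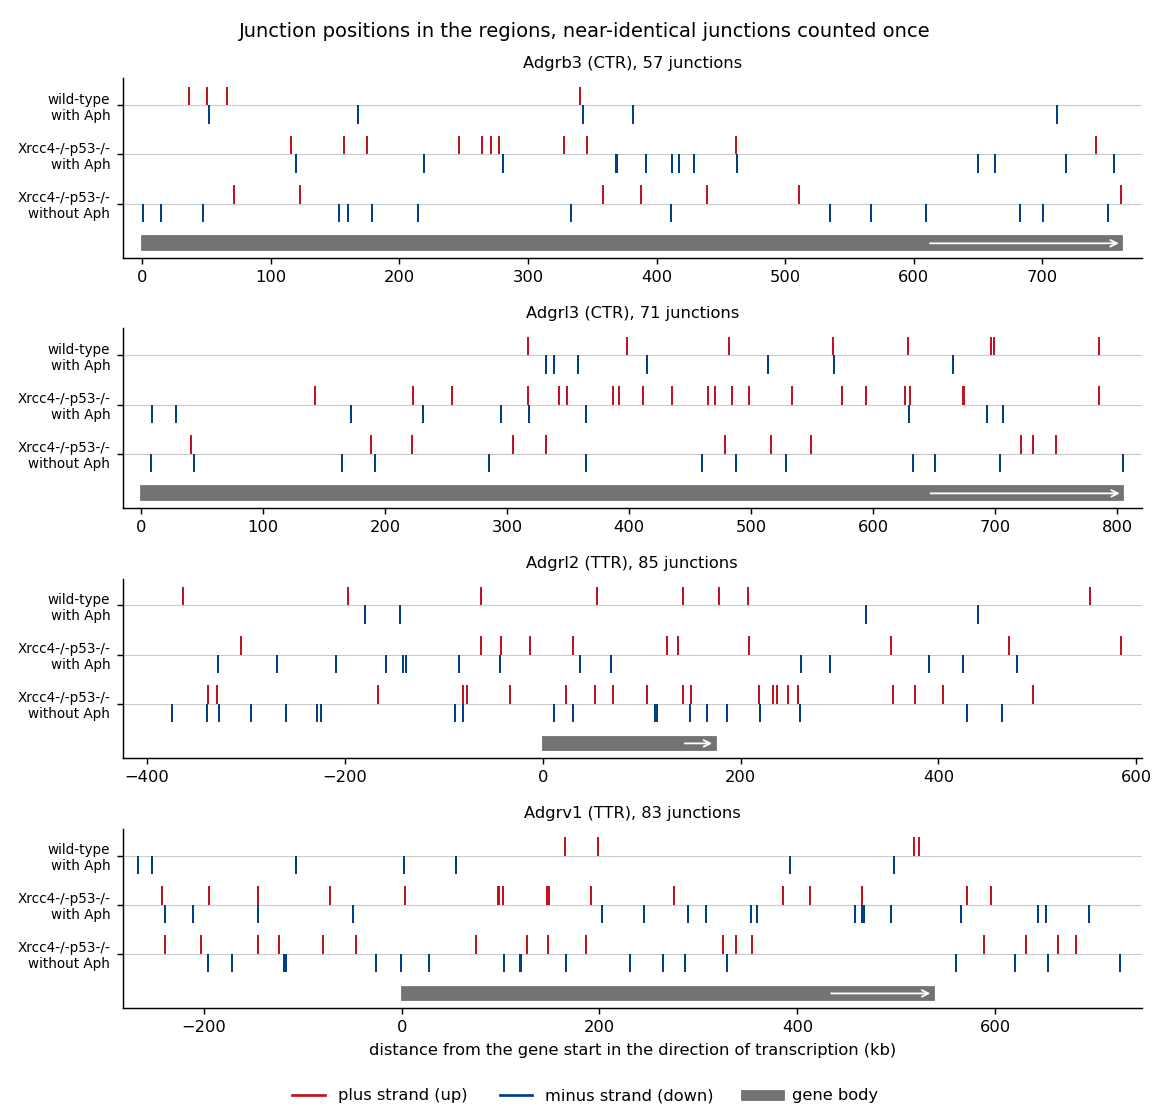
Position of each junction along the 4 regions, in kb from the gene start in the direction of transcription, for wild-type cells with Aph (alone or with ART558), Xrcc4-/-p53-/- cells with Aph (alone or with ART558) and Xrcc4-/-p53-/- cells without Aph. Ticks above a line are plus-strand and ticks below it minus-strand junctions, the grey bar is the gene body and near-identical junctions are counted once; the 71 Adgrl3 and 57 Adgrb3 ticks run along the whole gene, and most of the 85 Adgrl2 ticks lie outside the gene.

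Among the 2489 protein-coding genes of at least 100 kb, whose bodies held a median of 61.4 such junctions per Mb over all libraries, Adgrl2 ranked 107, Adgrl3 392, Adgrv1 439 and Adgrb3 733 from the densest. By this count the members stood above the median long gene, with Adgrb3 nearest to it. Genes on the bait chromosomes 6, 8, 12 and 14 were not counted in the libraries of their own bait, and this was not corrected. The members were counted in the libraries of all baits, which favours their ranks. The CTR regions are poorer in GC, with 37.6% in Adgrb3 and 37.1% in Adgrl3, than the TTR windows, with 41.6% in Adgrl2 and 40.3% in Adgrv1. The 201 bp around the junctions had a median GC content within 2 points of that of the region's own 201-bp tiles, at 38.3% against 37.3% in Adgrb3, 35.3% against 36.8% in Adgrl3, 43.3% against 41.8% in Adgrl2 and 39.3% against 40.3% in Adgrv1. Repeat-masked sequence made up 29.1% of Adgrb3 and held 19.3% of its junctions. In Adgrl3 these shares were 27.5% and 32.4%, in Adgrl2 23.0% and 25.9%, and in Adgrv1 33.1% and 37.3%.

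Under Aph alone, the breaks of the CTR members rose in Xrcc4-/-p53-/- cells and those of the TTR members did not pass the test. Adgrb3 gave 0.913 ± 0.913 JPTM with Aph (SD, n = 9 libraries) and 0.183 ± 0.264 with DMSO (n = 17), and Adgrl3 gave 1.23 ± 1.39 and 0.406 ± 0.469. Adgrl2 gave 0.481 ± 0.473 and 0.471 ± 0.577, and Adgrv1 0.839 ± 0.492 and 0.461 ± 0.615. Each RDC with at least 20 junctions was compared by a two-sided exact permutation test over libraries, adjusted after Benjamini-Hochberg over all RDCs tested, with a call at an adjusted p under 0.05. Of 101 RDCs tested, 35 were called, or 34.7%, all higher with Aph, and both CTR members and neither TTR member were among them. With all junctions as the total, bait chromosome included, 73 RDCs were called by the same exact permutation test and Adgrv1 was among them (difference 0.163, adjusted p = 0.00782).

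The synaptic receptor gene Adgrb3 had 17 junctions in the Aph libraries. The chromosome 6 bait gave 2.10 JPTM, the 3 chromosome 8 libraries 0.965, 0.974 and 1.27, the 2 chromosome 12 libraries 0 and 0.450, and the 3 chromosome 14 libraries 0, 0 and 2.46. The 17 DMSO libraries ranged from 0 to 0.807 with a median of 0, and 7 of them held an Adgrb3 junction. The groups overlapped, since 3 Aph libraries were at 0, but 5 of the 9 Aph libraries lay above the highest DMSO library. Among these 5, chromosome 8 replicates 1 and 3 held 1 junction each, which at their depth is enough to exceed it. The difference was 0.730 (exact permutation p = 0.00351, adjusted p = 0.0154), and it passed without any 1 of the 26 libraries, with an adjusted p of at most 0.0393. With the bait on chromosome 8 the Aph mean was 1.07 against 0 with DMSO, on chromosome 14 0.822 against 0, on chromosome 6 2.10 in the only Aph library against 0.229, and on chromosome 12 0.225 against 0.523, so that the chromosome 12 bait went the other way. The DMSO libraries of the chromosome 8 and 14 baits, all at 0 for Adgrb3, were shallow, with 711 to 888 and at most 918 junctions on other chromosomes. In these 6 libraries 1 Adgrb3 junction was worth 1.43 to 1.88 JPTM, so that their 0 does not show a lower level. Weighting libraries by depth, as summed junctions over summed totals, gave 0.572 for Adgrb3 and ended its call (permutation test, adjusted p = 0.0584).

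The latrophilin gene Adgrl3 had 21 junctions in each group. The Aph libraries gave 1.14 JPTM with the chromosome 6 bait, 1.2, 1.84 and 4.57 with chromosome 8, 0 and 1.21 with chromosome 12, and 0, 0.556 and 0.583 with chromosome 14. The DMSO libraries ranged from 0 to 1.75 with a median of 0.382. The groups overlapped widely, with 2 Aph libraries above the highest DMSO library and 2 at 0. The difference of 0.828 (exact permutation p = 0.0162, adjusted p = 0.0468) lost its call without any of 20 of the 26 libraries. Without the third Aph library of the chromosome 8 bait, the highest, it was 0.411 (adjusted p = 0.157 by the same exact test). Within baits the Aph mean was higher with all 4, at 1.14 against 0.454 (chromosome 6), 2.54 against 0.582 (chromosome 8), 0.606 against 0.531 (chromosome 12) and 0.380 against 0 (chromosome 14), where 1 junction in the 3 DMSO libraries was worth 1.35 to 1.78 JPTM, so that their 0 does not show a lower level. Permuted within baits, Adgrl3 was no longer called (difference 0.773, exact permutation, adjusted p = 0.0644). Both CTR calls were also lost in the permutation test within runs that hold both treatments, at adjusted p = 0.0537 for Adgrb3 and 0.0989 for Adgrl3, and against the DMSO libraries of the ART558 experiment alone, at 0.181 and 0.346. Adgrl3 was also not called with summed totals (0.0910) or above its flanks (0.170, both by permutation).

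The TTR members did not pass the test, and whether they differ from the CTR members was not tested. Adgrl2 had 14 junctions with Aph, where its libraries ranged from 0 to 1.37 JPTM with a median of 0.483, and 27 with DMSO, from 0 to 2.25 with a median of 0.302. The difference was 0.00989 (exact permutation p = 0.967, adjusted p = 0.967), and its sign turned in 4 of 13 alternatives and without any of 13 of the 26 libraries. Adgrv1 had 25 junctions with Aph, from 0 to 1.79 with a median of 0.742, and 26 with DMSO, from 0 to 2.10 with a median of 0.213. Of the 9 Aph libraries 8 held an Adgrv1 junction, against 10 of the 17 DMSO libraries, and the difference of 0.378 did not pass (exact permutation p = 0.124, adjusted p = 0.232). Over its gene body alone, Adgrl2 gave 0.731 with Aph and 0.307 with DMSO, from 5 junctions each, a difference of 0.425 that was too sparse to test. Over its gene body, Adgrv1 gave 0.881 with Aph and 0.333 with DMSO (difference 0.549, exact permutation p = 0.0292, adjusted p = 0.140 over 225 long genes).

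**Figure D2:**
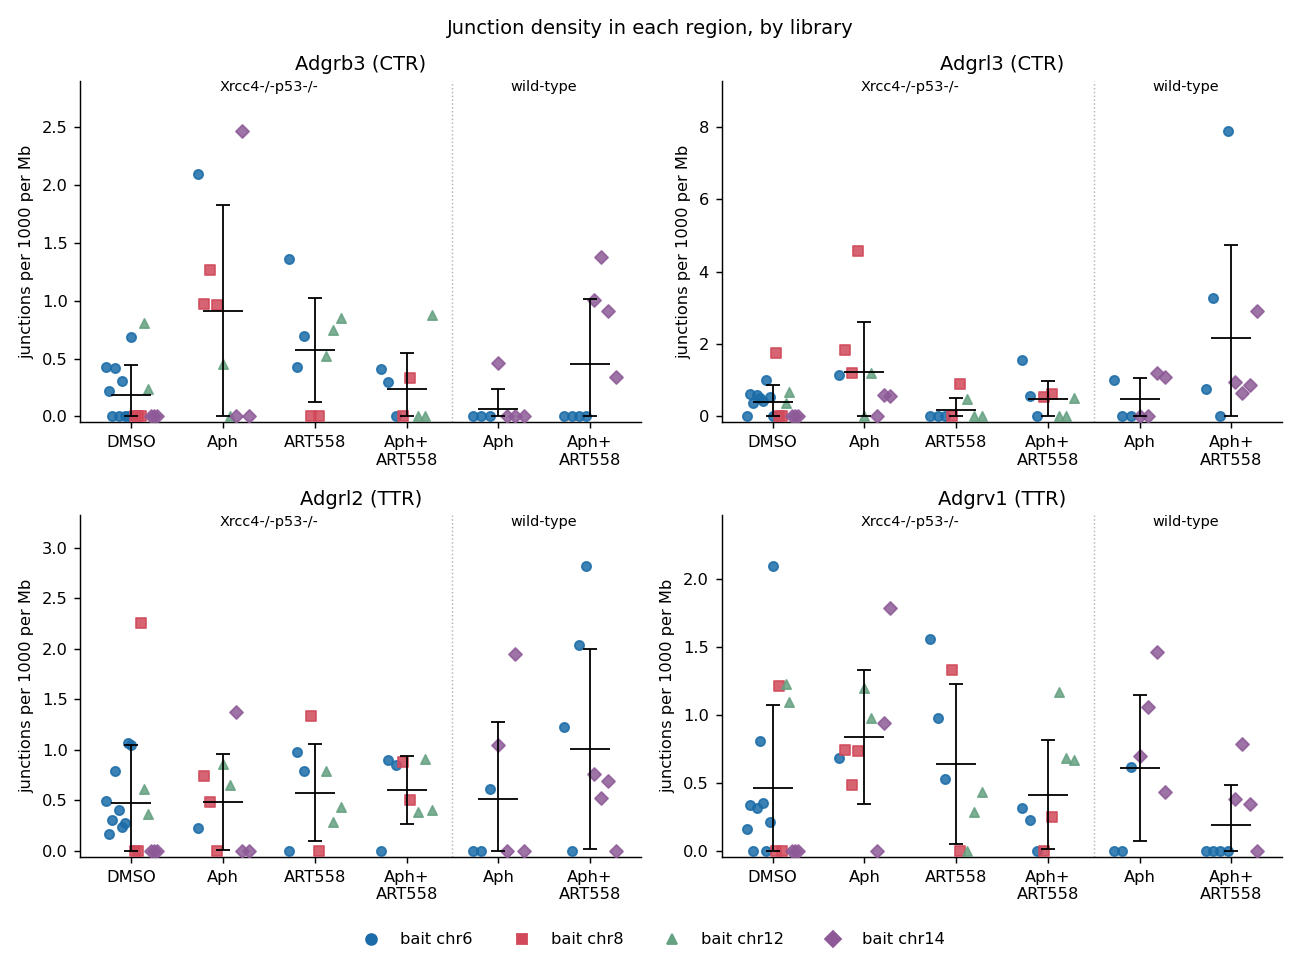
Junction density (junctions per 1000 junctions on chromosomes other than the bait's, per Mb) of each of the 57 libraries, by gene, genotype and drug, with colour and shape giving the bait chromosome. Horizontal marks are means and bars the SD, cut at 0. In Adgrb3, 5 of the 9 Aph libraries lie above the highest DMSO library at 0.807. Among these 5, chromosome 8 replicates 1 and 3 hold 1 junction each. The highest Adgrl3 value, 7.88, is a wild-type Aph + ART558 library.

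Over all RDCs of a class, 20 of 39 CTR RDCs tested and 15 of 62 TTR RDCs tested were called under Aph, with median differences of 0.730 and 0.273, and the difference between the classes was not tested. Adgrb3 lay at the CTR median and Adgrl3 above it, while Adgrl2 lay below and Adgrv1 above the TTR median. These medians, and the ranks that follow, set the gene bodies of Adgrb3 and Adgrl3 beside 1 Mb windows of the other RDCs. In DMSO, Adgrb3 was among the lowest RDCs, 100 of 107 by mean density, with Adgrl3 at 58, Adgrv1 at 42 and Adgrl2 at 38. With Aph the order turned, with Adgrl3 at 20, Adgrb3 at 41, Adgrv1 at 43 and Adgrl2 at 88. Library by library, Adgrl3 exceeded Adgrl2 in 7 of 9 Aph libraries and fell below it in 2, while with DMSO it was above in 7, below in 6 and equal in 4 of 17. Adgrb3 exceeded Adgrl2 in 5 of 9 Aph libraries and in 3 of 17 DMSO libraries. Against Adgrv1 the Aph libraries were as follows, with Adgrl3 above in 5 and below in 3 of 9, and Adgrb3 likewise above in 5 and below in 3. With both drugs, in Xrcc4-/-p53-/- cells, Adgrl2 exceeded Adgrb3 in 6 and Adgrl3 in 5 of 8 libraries, while Adgrv1 exceeded Adgrb3 in 2 and fell below it in 4, and exceeded Adgrl3 in 3 and fell below it in 4. With ART558 alone Adgrl2 exceeded Adgrb3 in 4 and Adgrl3 in 6 of 8. In wild-type cells with both drugs, Adgrl3 exceeded Adgrl2 in 6 of 8 libraries and Adgrb3 exceeded it in 4 and fell below it in 3. Against Adgrv1 there, Adgrb3 was above in 4 and below in 0, and Adgrl3 above in 6 and below in 1. At equal counts a CTR member comes out higher, because its region is shorter than 1 Mb. For example, Adgrl3 and Adgrl2 held 2 junctions each in wild-type chromosome 14 replicates 1, 2 and 3 with both drugs. Likewise, Adgrb3 and Adgrv1 held 1 each in Aph chromosome 8 replicates 1 and 3. In wild-type cells with Aph the TTR member was the more often higher in all 4 pairs, with Adgrb3 above Adgrl2 in 0 and below in 3 of 7 libraries, above Adgrv1 in 0 and below in 5, and Adgrl3 above Adgrl2 in 2 and below in 3, above Adgrv1 in 2 and below in 4. Against Adgrv1 in Xrcc4-/-p53-/- cells, Adgrb3 was above in 2 and below in 8 of 17 DMSO libraries and Adgrl3 above in 7 and below in 6, and with ART558 Adgrb3 was above in 4 and below in 3 of 8 and Adgrl3 above in 2 and below in 6. The flanking 1 Mb on either side gave 0.329 JPTM in Aph for Adgrb3, 0.418 for Adgrl3, 0.360 for Adgrl2 and 0.218 for Adgrv1, and the region was above its flanks in 5 of 9 libraries for Adgrb3, 6 for Adgrl3, 5 for Adgrl2 and 8 for Adgrv1.

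Addition of ART558 to Aph was compared in the Xrcc4-/-p53-/- libraries of the chromosome 6, 8 and 12 baits, to ask whether junctions at these genes depend on Pol θ. With the chromosome 8 and 12 baits, the Aph and the Aph + ART558 libraries came from different runs, so that drug and run cannot be told apart there. Only with the chromosome 6 bait, which has 1 Aph library, did both groups share a run. Both CTR members and Adgrv1 had lower means with both drugs, Adgrl2 did not over its 1 Mb window, and none of the 4 was called. With all junctions as the total, bait chromosome included, the Adgrv1 difference turned to 0.00316. Over its gene body alone Adgrl2 was lower with both drugs, at 0.613 against 1.0967 from 4 and 5 junctions, which was too sparse to test. Of 96 RDCs tested, 2 were called, or 2.08%, both lower, and 83 of the 96 had a lower mean with ART558. Without 1 library the number of calls ran from 0 to 7.

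Adgrb3 gave 0.240 ± 0.312 JPTM with both drugs (n = 8) and 0.959 ± 0.718 with Aph (n = 6). With both drugs the libraries gave 0, 0.296 and 0.412 (chromosome 6), 0 and 0.331 (chromosome 8) and 0, 0 and 0.881 (chromosome 12). All of these lay below 4 of the 6 Aph libraries, and the groups overlapped through the chromosome 12 bait, which held the highest library with both drugs and the 2 lowest with Aph. The difference was -0.719 (exact permutation p = 0.0206, adjusted p = 0.117). Without the second Aph library of the chromosome 12 bait it was -0.911 and passed (exact permutation test, adjusted p = 0.0220), while without any other 1 of the 14 libraries it did not pass, with differences up to -0.491. With the chromosome 12 bait the mean was 0.294 with both drugs and 0.225 with Aph, and so went the other way.

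Adgrl3 gave 0.474 ± 0.519 with both drugs and 1.66 ± 1.54 with Aph. With both drugs the libraries gave 0, 0.560 and 1.56 (chromosome 6), 0.544 and 0.627 (chromosome 8) and 0, 0 and 0.501 (chromosome 12). The means were lower with ART558 in each bait, at 0.707 against 1.14, 0.586 against 2.54 and 0.167 against 0.606. The difference of -1.19 did not pass (exact permutation p = 0.0296, adjusted p = 0.150), and it was -0.605 without the third Aph library of the chromosome 8 bait.

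Adgrl2 had 22 junctions with both drugs and 12 with Aph, and its density of 0.604 ± 0.333 against 0.494 ± 0.326 differed by 0.111 (exact permutation p = 0.545, adjusted p = 0.662). Without 1 library the difference ran from 0.0120 to 0.197, and with the chromosome 12 bait it was -0.186. Its libraries with both drugs ranged from 0 to 0.910 with a median of 0.677, and 7 of 8 held a junction. Adgrv1 gave 0.414 ± 0.400 against 0.804 ± 0.249, a difference of -0.389 (exact permutation p = 0.0576, adjusted p = 0.205). With both drugs the chromosome 12 bait gave 0.672, 0.682 and 1.17 JPTM for Adgrv1, above all 5 libraries of the chromosome 6 and 8 baits, which ranged from 0 to 0.314. The bait thus separated the Adgrv1 libraries, and within it the mean was lower with ART558 in each, by 0.506 (chromosome 6), 0.528 (chromosome 8) and 0.247 (chromosome 12).

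**Figure D3:**
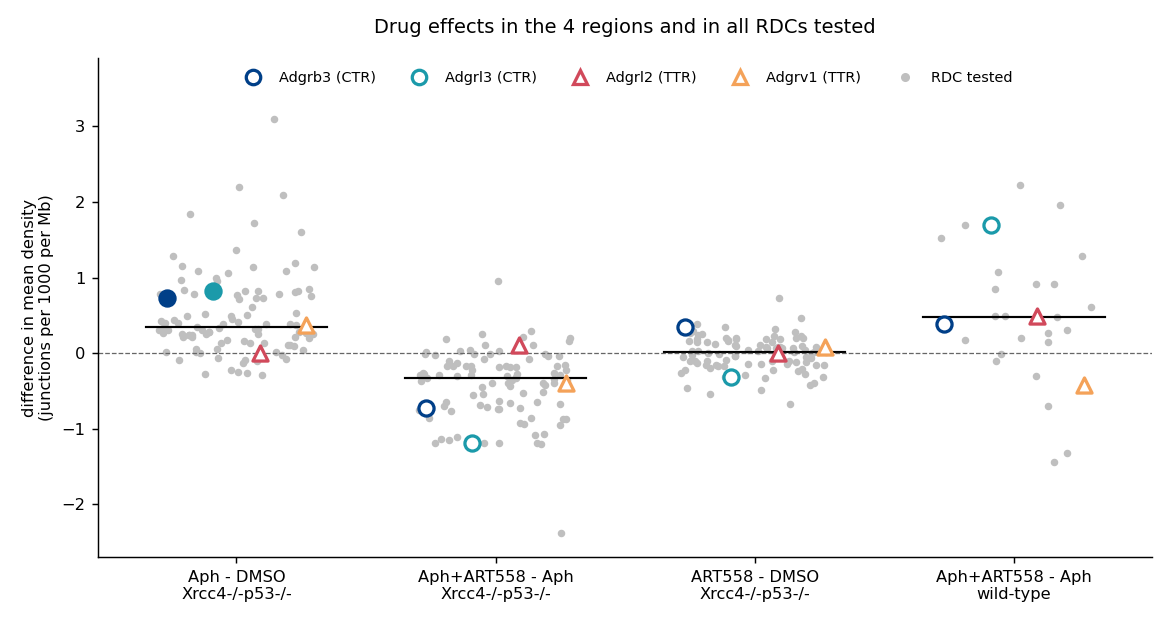
Difference in mean density (junctions per 1000 per Mb) in 4 drug comparisons, for the 4 members (large symbols, circles for CTR and triangles for TTR) and for every RDC tested (grey dots), with a black line at the median over RDCs tested. A filled symbol marks a call, which only Adgrb3 (0.730) and Adgrl3 (0.828) have, under Aph against DMSO; open symbols are not called or, for Adgrb3 and Adgrv1 in wild-type cells, not tested.

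ART558 without Aph was compared with DMSO over the same 3 baits, and no RDC was called of 94 tested (0%) by the exact permutation test, with 6 at an unadjusted p under 0.05. Adgrb3 was 1 of these 6. It gave 0.575 ± 0.451 with ART558 (n = 8) and 0.222 ± 0.276 with DMSO (n = 14), a difference of 0.353 (exact permutation p = 0.0325, adjusted p = 0.611). The ART558 libraries gave 0.426, 0.695 and 1.36 with the chromosome 6 bait, 0.519, 0.744 and 0.854 with chromosome 12, and 0 in both with chromosome 8. Adgrl3 had its lowest level in Xrcc4-/-p53-/- cells here, 0.174 ± 0.341 from 3 junctions in 2 of 8 libraries, against 0.493 ± 0.474 with DMSO (adjusted p = 0.772 in the exact test). Among all RDCs, Adgrb3 ranked 27 of 107 with ART558 alone and Adgrl3 101. Adgrl2 gave 0.576 ± 0.477 and 0.572 ± 0.589 (adjusted p = 0.989), and Adgrv1 0.639 ± 0.590 and 0.559 ± 0.637 (adjusted p = 0.958, both by the exact permutation test). When all junctions of the library formed the total, bait chromosome included, 36 RDCs were called by the exact permutation test, among them Adgrb3 (adjusted p = 0.00921), Adgrl2 (0.0321) and Adgrv1 (0.0485), so that the choice of the total decides these calls.

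In wild-type NSPCs, Aph + ART558 gave higher means than Aph for Adgrl3, Adgrl2 and Adgrb3 and a lower mean for Adgrv1. Of 24 RDCs tested none was called (0%) by the exact permutation test, 1 was under an unadjusted p of 0.05, and 18 of the 24 were higher. Adgrb3 and Adgrv1, with 10 and 15 junctions, were not tested.

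Adgrl3 had 27 junctions with both drugs and 5 with Aph. The Aph libraries gave 1.01, 0 and 0 JPTM (chromosome 6) and 0, 0, 1.21 and 1.08 (chromosome 14). Those with both drugs gave 0.759, 3.27, 0 and 7.88 (chromosome 6) and 0.949, 0.652, 0.864 and 2.92 (chromosome 14). The highest library of each bait was its replicate 4, with 9 junctions each, and the other libraries with both drugs except chromosome 6 replicate 2 lay below the highest Aph library. The means of 2.16 ± 2.58 (n = 8) and 0.471 ± 0.591 (n = 7) differed by 1.69 (exact permutation p = 0.0844, adjusted p = 0.457), and without chromosome 6 replicate 4 by 0.873.

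Of the 27 Adgrl3 junctions with both drugs, most lay at 4 repeated positions. On the plus strand, 8 junctions at chr5:81716619-81716627 in intron 18 came from replicates 1, 2 and 4 of the chromosome 6 bait. On the minus strand, 4 lay at position 81588332 in intron 10 in replicates 2 and 4 of that bait. In replicate 4 of the chromosome 14 bait, 3 lay at 81534253 in intron 9 and 4 at 81685727 in intron 14. With near-identical junctions counted once, Adgrl3 kept 12 junctions with both drugs and 3 with Aph, and its means were 1.06 ± 1.25 and 0.451 ± 0.606. Adgrl3 ranked 4 of 107 RDCs in wild-type cells with both drugs as deposited.

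**Figure D4:**
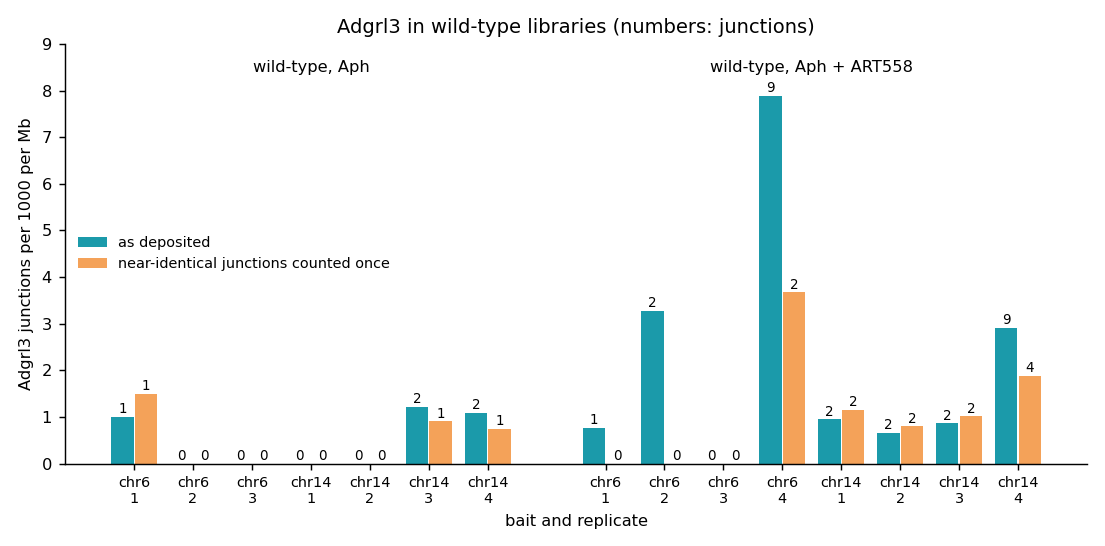
Adgrl3 junctions per 1000 per Mb in each wild-type library, as deposited and with near-identical junctions counted once per run and bait, with the number of junctions above each bar. The 9 junctions of chromosome 6 replicate 4 and the 9 of chromosome 14 replicate 4 fall to 2 and 4 when repeats are counted once.

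Adgrl2 gave 1.01 ± 0.987 JPTM with both drugs and 0.517 ± 0.755 with Aph (difference 0.491, exact permutation p = 0.306, adjusted p = 0.539), and without 1 library the difference ran from 0.232 to 0.730. With both drugs the chromosome 6 libraries gave 1.22, 0, 2.04 and 2.82 and the chromosome 14 libraries 0.764, 0.525, 0.696 and 0, so that the baits went in opposite directions, with a difference of 1.31 within chromosome 6 and -0.254 within chromosome 14. The 9 chromosome 6 junctions with both drugs lay at 2 spots, 6 on the plus strand within chr3:149052585-149052907, where the 1 Aph junction of that bait also lay, and 3 on the minus strand at 148663634 and 148663635. Over the Adgrl2 gene body, the wild-type means were 0.273 with both drugs and 0.796 with Aph, from 1 and 2 junctions. Adgrb3 was seen only with the chromosome 14 bait in wild-type cells. There all 4 libraries with both drugs held it, at 1.0026, 1.38, 0.913 and 0.342 JPTM, against 1 of 4 with Aph, at 0.460, while none of the 7 chromosome 6 libraries did. Adgrv1 had 10 junctions in Aph (0.610 ± 0.534) and 5 with both drugs (0.190 ± 0.293), or 6 and 5 with repeats counted once, and with the chromosome 6 bait this was 1 junction against 0. Its Aph level lay below that of its flanks, at 1.17, and above the flanks its difference turned to 0.639.

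Whether ART558 acts differently on the 2 genotypes under Aph was tested by an interaction, with genotype labels permuted 100000 times. Adgrb3 was called, with 9 of 107 RDCs, or 8.41%. Its density changed by -0.719 in Xrcc4-/-p53-/- cells and by 0.389 in wild-type cells, a difference of -1.11 (permutation p = 0.00292, adjusted p = 0.0446). Without replicate 4 of the wild-type libraries it was -1.19 (permutation test, adjusted p = 0.05003, no longer under the threshold). Adgrl3 changed by -1.19 and 1.69, a difference of -2.88 (permutation p = 0.00485, adjusted p = 0.0519), which was -1.90 without those libraries (adjusted p = 0.102). Adgrl2 (-0.380, adjusted p = 0.636) and Adgrv1 (0.0310, adjusted p = 0.961, same permutations) did not pass. The baits differ between the genotypes, with chromosomes 6 and 14 in wild-type cells and 6, 8 and 12 in the others, so that genotype, bait and run cannot be told apart in these values.

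Under Aph alone the genotypes were set side by side over the shared chromosome 6 and 14 baits. No member reached 20 junctions there, and among the 19 RDCs tested 7 were called higher in Xrcc4-/-p53-/- cells, or 36.8%. With all junctions as the total 0 were called, and without 1 library 3 to 7. Adgrb3 gave 1.14 ± 1.33 JPTM in Xrcc4-/-p53-/- cells (n = 4) and 0.0657 ± 0.174 in wild-type cells (n = 7). Adgrl3 gave 0.569 ± 0.464 and 0.471 ± 0.591, Adgrl2 0.400 ± 0.656 and 0.517 ± 0.755, and Adgrv1 0.854 ± 0.739 and 0.610 ± 0.534. In each member the SD of the Xrcc4-/-p53-/- libraries was larger than the difference between the means. Without 1 library the difference ran from 0.634 to 1.46 in Adgrb3 and took either sign in the others, from -0.0915 to 0.287 in Adgrl3, -0.441 to 0.121 in Adgrl2 and -0.0685 to 0.528 in Adgrv1.

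The strand of the prey says to which side the captured end extends, with a plus-strand read running from the junction to higher coordinates. Over the Xrcc4-/-p53-/- libraries with Aph or Aph + ART558, 44.0% of 25 Adgrb3 junctions, 67.6% of 34 Adgrl3 junctions, 44.4% of 36 Adgrl2 junctions and 50% of 42 Adgrv1 junctions were on the plus strand. No RDC was called of 102 tested (0%) by an exact sign-flip permutation over libraries, with 11 at an unadjusted p under 0.05. Adgrl3, in which plus exceeded minus in 7 of 12 libraries and the reverse held in 2, had the largest excess of the members (exact permutation p = 0.0977, adjusted p = 0.623), and 67.6% was the highest share of the 40 CTR RDCs tested.

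By position, minus-strand junctions lay to the lower side of plus-strand junctions in 3 of the 4 members in Xrcc4-/-p53-/- cells with Aph or Aph + ART558. In Adgrb3, counted with repeats once, 9 of 11 plus-strand junctions lay above the midpoint of the region by coordinate and 9 of 14 minus-strand junctions below it. In Adgrl3, 14 of 22 plus-strand junctions lay above the midpoint and 7 of 10 minus-strand junctions below it, and in Adgrv1 these were 11 of 17 and 13 of 18. In Adgrl2 the order was the other way, with 5 of 12 and 5 of 15. Without Aph, with DMSO or ART558, Adgrb3 had 3 of 7 plus-strand junctions above and 8 of 16 minus-strand junctions below the midpoint, Adgrl3 6 of 11 and 6 of 13, Adgrv1 10 of 17 and 8 of 20, and Adgrl2 9 of 21 and 9 of 20. In wild-type cells these counts were 2 of 4 and 2 of 7 in Adgrv1 and 9 of 13 and 2 of 4 in Adgrl2, beside 4 of 4 and 2 of 5 in Adgrb3 and 6 of 8 and 3 of 7 in Adgrl3. These counts are a description and were not tested.

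Microhomology is the length of sequence at a junction that fits bait and prey alike, and a junction with 0 is a direct join. Values of 0 to 10 bp were used and insertions were counted apart. In the Xrcc4-/-p53-/- libraries of the chromosome 6, 8 and 12 baits, direct joins made up 2 of 12 Adgrb3 junctions with Aph (16.7%, 95% Wilson interval 4.70% to 44.8%) and 4 of 6 with Aph + ART558 (66.7%, 30% to 90.3%). In Adgrl3 they were 4 of 13 (30.8%, 12.7% to 57.6%) and 5 of 8 (62.5%, 30.6% to 86.3%), and in Adgrv1 6 of 16 (37.5%, 18.5% to 61.4%) and 11 of 14 (78.6%, 52.4% to 92.4%). The last share leaves out 3 Adgrv1 junctions with overlaps over 10 bp, of which there were 0 with Aph. Counting them, 11 of 17 were direct joins. Adgrl2 had 3 of 10 (30%, 10.8% to 60.3%) and 7 of 21 (33.3%, 17.2% to 54.6%). The intervals cover counting error only, and they overlap in each member. As for density, drug and run cannot be told apart with the chromosome 8 and 12 baits.

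No RDC was called of 81 tested (0%) by an exact permutation test over libraries of the share of direct joins, with 8 at an unadjusted p under 0.05. The difference was 31.7 points in Adgrl3 (exact permutation p = 0.285, adjusted p = 0.706), 3.33 points in Adgrl2 (p = 0.870, adjusted p = 0.979) and 41.1 points in Adgrv1 (p = 0.0829, adjusted p = 0.563, same exact permutation test), and Adgrb3, 50 points apart, held too few junctions. Without 1 library the difference ran from 18.1 to 50 points in Adgrl3, from -9.52 to 16.7 in Adgrl2, from 25 to 51.3 in Adgrv1 and from 43.3 to 83.3 in Adgrb3. The median over all RDCs tested was 12.1 points, with 18.2% direct joins in Aph and 30% with both drugs, and 58 of the 81 were higher with ART558. The members had more direct joins under Aph than the median RDC in Adgrl3, Adgrl2 and Adgrv1 and fewer in Adgrb3.

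**Figure D5:**
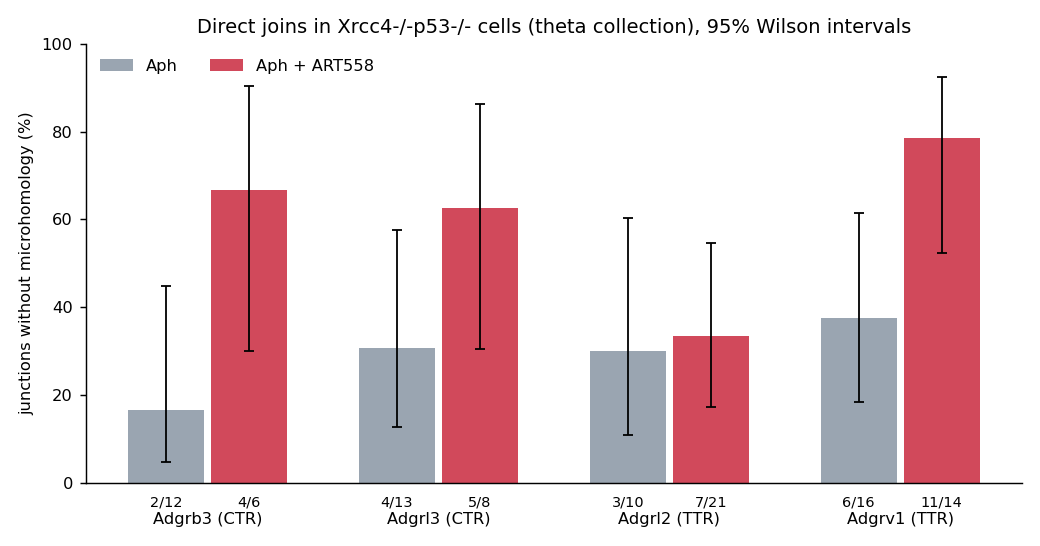
Percentage of junctions without microhomology in each member, with Aph and with Aph + ART558, in Xrcc4-/-p53-/- libraries of the chromosome 6, 8 and 12 baits, with 95% Wilson intervals and the counts under each bar. The bar with ART558 is the higher of the pair in each gene, by 50 points in Adgrb3, 41.1 in Adgrv1, 31.7 in Adgrl3 and 3.33 in Adgrl2, and the intervals of each pair overlap.

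In DMSO, Adgrl2 had no direct join among 21 junctions, which allows a share of up to 14.3%, while Adgrb3 had 4 of 10, Adgrv1 4 of 18 and Adgrl3 2 of 16. The mean microhomology was 3.71 bp in Adgrl2, 2.56 in Adgrv1, 2.06 in Adgrl3 and 1.70 in Adgrb3, leaving out overlaps over 10 bp, of which Adgrv1 had 2 and Adgrb3 and Adgrl2 1 each. With these the Adgrb3 mean would lie above that of Adgrl3. With Aph it was 1.25 bp in Adgrl2, 2.63 in Adgrb3, 2.46 in Adgrl3 and 2.36 in Adgrv1. With both drugs it was 2.10 bp in Adgrl2, 1.83 in Adgrb3, 1.38 in Adgrl3 and 0.571 in Adgrv1. The Adgrv1 mean leaves out 3 of 17 junctions with overlaps of 11, 13 and 14 bp, all of chromosome 12 replicate 3, which would raise it above the other 3 members. Insertions made up 8 of 21 Adgrl3 junctions with Aph, 5 of 13 with both drugs and 5 of 21 with DMSO. In the same order they were 1 of 17, 2 of 8 and 0 of 11 in Adgrb3, 2 of 14, 1 of 22 and 5 of 27 in Adgrl2, and 3 of 25, 0 of 17 and 6 of 26 in Adgrv1. In wild-type cells with both drugs, 5 of 21 Adgrl3 junctions were direct joins, or 3 of 10 with repeats counted once, against 1 of 5 with Aph. In Adgrl2 they were 5 of 8 with Aph and 2 of 11 with both drugs, or 3 of 5 and 2 of 9 with repeats counted once. In Adgrv1 they were 1 of 6 and 0 of 5, and in Adgrb3 0 of 1 and 2 of 6. The Adgrl2 shares in Xrcc4-/-p53-/- cells, 3.33 points apart, took either order without 1 library. They set no direction for the wild-type shares to be compared with.

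The RDCs whose mean densities over the 6 genotype and drug groups were nearest to those of each member, by Euclidean distance of log2(density + 0.1), were Negr1 (distance 1.11) and Ptprd (1.17) for Adgrb3, Cadm2 (1.16) and Ccser1 (1.32) for Adgrl3, Wwox (0.93) and Dpp10 (1.02) for Adgrl2, and Zbtb20 (0.90) and Dock1 (0.92) for Adgrv1. Both neighbours of Adgrl3 are CTR and both of Adgrv1 are TTR. Adgrb3 has 1 of each, as has Adgrl2.

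The rest of the family and the members' binding partners were read over gene bodies, tested among protein-coding genes of at least 100 kb with at least 20 junctions. Of 30 adhesion G protein-coupled receptor genes 12 are that long and 3 were tested under Aph against DMSO in Xrcc4-/-p53-/- cells, namely Adgrb3, Adgrl3 and Adgrv1. All 3 were higher, as were 169 of the 225 genes tested, with median differences of 0.730 and 0.241, and Adgrb3 was called (adjusted p = 0.0303 by the exact permutation test) while Adgrl3 was not (adjusted p = 0.0935), beside 32 calls over all genes, or 14.2%. The short sister genes Adgrl1, Adgrb1 and Adgrb2 held 5, 4 and 1 junctions over all libraries. Among the teneurins, FLRT proteins and the UNC5 receptors that bind FLRTs, 4 of 11 genes were tested and none was called by the exact permutation test. Tenm3 gave 1.17 JPTM with Aph and 0.725 with DMSO, Tenm4 1.0998 and 0.628, Tenm2 0.741 and 0.422, and Unc5d 0.548 and 0.465. Of the Usher genes, Cdh23 (0.903 and 0.509) and Pcdh15 (0.488 and 0.280) were tested and not called. The C1q-like and Nogo receptor genes, ligands of the BAI receptors, are all shorter than 100 kb and held at most 4 junctions each. Addition of ART558 to Aph gave 1 call in 135 genes (0.741%), and none in these lists.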

How the data were processed

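The authors deposited 1 junction table per LAM-HTGTS library, not normalized. Per the paper's methods, reads were trimmed and demultiplexed (TranslocProcess), aligned to mm10 with Bowtie2 and called with TranslocWrapper. The deposited values used here (prey position, strand and alignment ends; unit other, no score or count column) were turned into junction counts per region. The 12 Repli-seq samples were not analysed here, and 1 incomplete line was dropped. RDC positions and CTR or TTR class came from the study's supplement, and genes from GENCODE M21. The members and gene lists were chosen with earlier results of these data known.

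Density was the number of junctions per 1000 junctions on chromosomes other than the bait's and per Mb. Libraries under 500 such junctions and, for tests, regions under 20 junctions in the groups compared were left out. Group means were compared by two-sided exact permutation over libraries (the interaction by 100000 permutations), strand by exact sign flips, with Benjamini-Hochberg adjustment over all RDCs tested. Microhomology was the overlap of the bait and prey alignments on the read. The text names the 4 members, the 2 RDCs nearest to each, and genes tested in the lists, of which 1 is not reported here, nor is 1 read sequence. On simulated libraries for the Aph comparison, 17 of 20 RDCs changed 3-fold and 20 of 20 changed 6-fold were called; for Aph + ART558 against Aph these were 13 of 19 and 18 of 20 (1 unchanged RDC also called) in Xrcc4-/-p53-/- cells, and 9 of 14 and 12 of 16 in wild-type cells. The simulated counts varied around 1 rate per RDC and change by counting error alone. Differences between baits and repeated junctions, which these libraries hold, were left out. The shares called may therefore be too high for these libraries. Alternatives covered the total, depth minimum, regions, flanks, repeats, baits, runs and replicate numbers. Python 3.11.15, NumPy 2.4.6, pandas 2.3.3, SciPy 1.17.1 and Matplotlib 3.10.9 were used.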

Additional observations from a re-analysis of the deposited data

Results flagged for a closer look

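In 20 groups of 4 to 10 libraries, 5 held a library far from the others, and chance gives about 1 in 20 groups for continuous values. That rate does not hold for counts that are mostly 0, as here. In wild-type cells with Aph + ART558, Adgrl3 stood at 7.88 JPTM in chromosome 6 replicate 4, from 9 junctions, against 3.27 in the next library; with near-identical junctions counted once it was 3.68. In Xrcc4-/-p53-/- cells with Aph, Adgrl3 stood at 4.57 in chromosome 8 replicate 3, from 5 junctions, against 1.84. With both drugs it stood at 1.56 in chromosome 6 replicate 1, from 4 junctions, against 0.627. Adgrb3 stood at 0.881 in the Xrcc4-/-p53-/- library of both drugs, chromosome 12 replicate 3, from 5 junctions, against 0.412. In wild-type cells with Aph its only junction, in chromosome 14 replicate 1, gave 0.460, with all other libraries at 0; a single junction was worth 0.461 to 1.96 in those, so it does not stand apart from them.

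The effect of ART558 under Aph on Adgrb3 differed between the genotypes by -1.11 JPTM (permutation test, adjusted p = 0.0446), and without wild-type replicate 4 the call was lost (permutation test, adjusted p = 0.05003). Genotype, bait and run cannot be told apart in this value.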

How the results depend on the processing

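All p-values here come from permutation tests over libraries. For Aph against DMSO, with all junctions as the total Adgrv1 differed by 0.163 (permutation, adjusted p = 0.00782) and 73 RDCs were called. With summed totals Adgrb3 gave 0.572 (0.0584) and Adgrl3 0.505 (0.0910). Within baits Adgrl3 gave 0.773 (0.0644). Above the flanks Adgrl3 gave 0.704 (0.170) and Adgrl2 -0.0146. Within runs Adgrb3 gave 0.944 (0.0537), Adgrl3 0.786 (0.0989) and 20 calls. Against DMSO of the ART558 experiment alone Adgrb3 gave 0.671 (0.181), Adgrl3 0.742 (0.346), Adgrl2 -0.0750 and 17 calls. Adgrl2 gave 0.425 over gene bodies, -0.0448 with positions counted once per library and -0.0433 with repeats within 10 bp counted once, an alternative chosen after seeing the data. Leaving out 1 library gave 0.536 to 0.845 for Adgrb3, 0.411 to 0.982 for Adgrl3 and -0.101 to 0.121 for Adgrl2.

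For Aph + ART558 against Aph in Xrcc4-/-p53-/- cells, 1 RDC was called over gene bodies, above the flanks or with no depth minimum. With all junctions as the total, with repeats counted once in either way, or within baits, 0 were called. Within runs, only the chromosome 6 bait held both groups, with 1 Aph library, so that no RDC could pass there. Adgrl2 was -0.483 over gene bodies and Adgrv1 0.00316 with all junctions. Leaving out 1 library gave -0.911 to -0.491 for Adgrb3 and 0 to 7 calls. In wild-type cells Adgrl2 was -0.523 over gene bodies, Adgrv1 0.639 above the flanks, and 1 RDC was called with repeats counted once; leaving out 1 library gave 0 to 1 calls.

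For ART558 against DMSO, all junctions as the total gave Adgrb3 0.224 (permutation, adjusted p = 0.00921), Adgrl3 0.00302, Adgrl2 0.178 (0.0321), Adgrv1 0.186 (0.0485) and 36 calls. Adgrl2 was -0.0602 with no depth minimum, -0.00440 within baits and -0.0554 above the flanks. Adgrv1 was -0.0395 within baits, -0.161 above the flanks and -0.0772 within runs. Leaving out 1 library gave -0.104 to 0.133 for Adgrl2 and -0.0515 to 0.198 for Adgrv1. Between genotypes under Aph, 0 RDCs were called with all junctions, 3 to 7 without 1 library, and Adgrv1 was 0.986 above the flanks. For the interaction, Adgrv1 was -0.123 with repeats counted once, and without wild-type replicate 4 Adgrb3 was -1.19 (0.05003) and Adgrv1 -0.00311. Without 1 library the plus-strand share of Adgrb3 was 38.1% to 55.6%, and the direct-join difference was 43.3 to 83.3 points for Adgrb3 and -9.52 to 16.7 for Adgrl2. The cause of these changes was not tested.

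Libraries of the same replicate number did not deviate together, with correlations across RDCs from -0.152 to 0.157, so the numbers do not pair them. With the replicate block, Aph against DMSO gave 0.535 (permutation, adjusted p = 0.258) for Adgrb3, 0.963 (0.175) for Adgrl3 and 0 calls. For Aph + ART558 against Aph in Xrcc4-/-p53-/- cells the replicate block held 4 pairs, and between the genotypes 3. These are too few for any RDC to pass an exact sign flip, so that nothing can be read from them. Depth limits all values, since members held 1 to 9 junctions in a library where they were seen.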
